A study of Mus musculus with 79 samples.

Results

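The replication-dependent histone genes encode the core histones H2A, H2B, H3 and H4 and the linker histone H1 that package newly copied DNA. They were followed here in mouse embryonic stem cells treated with retinoic acid (RA), a vitamin A derivative that drives these cells to differentiate. Members were all rows whose gene symbol begins with Hist1h, Hist2h, Hist3h or Hist4h. The rule found 67 symbols, with 71 transcripts, among 19526 symbols in the E14 table, and the same 67 among 25335 symbols in the SCC1-mAID table and 19492 in the clone table. Hist1h2bq and Hist1h2br, Hist1h4m and Hist1h4n, and Hist2h2aa1 and Hist2h2aa2 overlap on the genome and had equal read counts in every library, so each of these pairs was counted once. The 64 loci that remained comprised 6 H1, 17 H2A, 17 H2B, 12 H3 and 12 H4 genes, of which 52 lie in the Hist1 cluster on chromosome 13, 9 in Hist2 on chromosome 3, 2 in Hist3 on chromosome 11 and 1, Hist4h4, on chromosome 6.

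These genes are switched on together as cells enter S phase, through the coactivator NPAT, and their messages are lost again when DNA synthesis stops. Most of the messages end in a conserved stem-loop in place of a poly(A) tail: the stem-loop binding protein SLBP holds the hairpin, and the U7 snRNP guides the cut just after it. The libraries were made from rRNA-depleted RNA without poly(A) selection, so messages without a tail could be read. Many of the H2A, H2B, H3 and H4 genes are near-identical copies within their family, whereas the H1 genes share less sequence. H1t, TH2A and TH2B (Hist1h1t, Hist1h2aa and Hist1h2ba) are known as the forms made in testis.

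The stem-loop is shown because it sets these messages apart from nearly all others. Its letters were searched as a 16-base hairpin in the GENCODE M21 transcripts, for which all 67 members had an entry, and 46 members held it. It lay within the last 150 bases in 24 members, against 3 of 21810 other protein-coding genes (0.0138%). For a match anywhere in the transcript, other genes were not counted. In Hist1h4b the hairpin stopped 28 bases before the annotated end. In Hist3h2ba, Hist1h1t, Hist1h4d, Hist1h1e and Hist4h4 it stopped 169, 185, 770, 1153 and 2445 bases before that end, outside the last 150 bases. The capitals below mark the hairpin, given 5′ to 3′ on the gene's own strand with T for U, and the lower-case letters its flanks.
Hist1h1e: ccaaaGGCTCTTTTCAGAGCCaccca
Hist3h2ba: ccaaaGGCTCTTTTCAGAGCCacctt
Hist1h1t: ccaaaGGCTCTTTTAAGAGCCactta
Hist1h4d: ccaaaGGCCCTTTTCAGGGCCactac
Hist4h4: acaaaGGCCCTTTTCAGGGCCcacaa
Hist1h4b: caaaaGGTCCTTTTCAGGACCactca
The form in Hist1h1e and Hist3h2ba was the most frequent, in 26 members, and was found in H1, H2A, H2B and H3 genes. The form in Hist1h4d and Hist4h4 was found in 7 members, all of them H4 genes. The form in Hist1h1t was found in 6 members, and that of Hist1h4b in 2 H4 genes. No hairpin was found in the annotated transcripts of Hist1h2ba and Hist1h2aa, which are only 384 and 390 bases long. Other members with short entries, such as Hist1h2bl (381 bases) and Hist1h2ai (393 bases), held none either. Messages that run past the annotated end could not be checked, so a missing match does not show that the message lacks the hairpin.

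H2A and H2B genes often stand head to head over a shared promoter. There were 11 such divergent pairs within 400 bases, all of an H2A with an H2B gene, with gaps of 177 to 305 bases. The gap between Hist1h2ae and Hist1h2bg is given as an example (mm10/GRCm38, chr13:23571221-23571399, plus strand, from the RefSeq GRCm38.p6 promoters). Its capitals mark the motifs CCAAT or its reverse complement ATTGG, the octamer ATTTGCAT and the TATA box TATAAA, none of which overlap.
Hist1h2ae/Hist1h2bg: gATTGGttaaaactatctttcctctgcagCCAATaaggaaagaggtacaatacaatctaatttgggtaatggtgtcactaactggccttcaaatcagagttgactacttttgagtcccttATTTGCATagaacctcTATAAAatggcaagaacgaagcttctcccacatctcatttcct
Motifs were searched on both strands in the 250 bases before the start, in 63 promoters of 62 members. CCAAT was found in 82.54%, TATAAA in 46.03% and ATTTGCAT in 22.22% of these. In 32788 promoters of other genes of the same length the shares were 33.76% for CCAAT, 12.3% for TATAAA and 1.562% for ATTTGCAT. The octamer was found in 7 of 18 H2A and 7 of 17 H2B promoters and in none of the H1, H3 or H4 promoters, and CCAAT was found in all 6 H1, 18 H2A and 17 H2B promoters but in 3 of 12 H4 promoters. A match is a description of the letters and not of factor binding.

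There were 79 libraries in 3 sets. Total RNA of wild-type E14 embryonic stem cells was taken after 1 µM RA for 2, 4 and 6 h (4 libraries each), 24 h (3), 48 h (4) and 72 h (4), and at 0 h without RA (2). The last time is 72 h in the sample titles and 74 h in another label. Nuclear RNA came from the deletion clones E3 and H12, 2 clones that lack a transient enhancer within the Hoxb locus, and from the wild-type clone G4, with 2 libraries per clone at each of 0, 2, 4, 6, 24, 48 and 74 h of RA. Each is 1 clone, so a difference from G4 cannot be told apart from a difference between clones, and no gene's reads check the deletion here. Nuclear RNA also came from E14 cells that carry Tir1 at Rosa26 and the cohesin subunit SCC1 fused to mAID and eGFP, 3 libraries per group. They were given 500 µM auxin for 6 h in all with 1 µM RA for the last 4 h, auxin alone, RA alone, or neither. Auxin acts on the tagged protein, so RNA counts give no check of its loss. Drosophila SG4 cells were added to the samples for calibration.

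Reads in genes ranged from 2352057 to 21082152 per E14 library, 4754218 to 10449828 per clone library and 3126275 to 7498857 per SCC1-mAID library. The E14 libraries at 24 to 72 h held 2352057 to 4123161 reads, against 16236418 and 21082152 at 0 h. Replicate 2 of E14 at 4 h stood apart from its group with low histone reads. All 8 embryonic stem cell markers (Pou5f1, Sox2, Nanog, Zfp42, Esrrb, Klf4, Tfcp2l1 and Dppa5a) were read in every set: they summed to 643 to 1987 CPM (reads scaled to a common library total) in E14 cells at 72 h, against 2630 and 2635 at 0 h, and to 96.1 to 321 CPM in the clones at 74 h, against 1514 to 2148 at 0 h. Extra-embryonic endoderm markers, 9 genes, all rose at the last time in both courses.

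In E14 cells the histone messages as a sum were above their 0 h level at 24, 48 and 72 h of RA. Their share of the reads in genes was 0.494 and 0.531% at 0 h, 0.503 to 0.674% at 2 h, 0.323 to 0.662% at 4 h, 0.467 to 0.769% at 6 h, 0.760 to 1.13% at 24 h, 0.891 to 1.08% at 48 h and 0.977 to 1.53% at 72 h. The members' CPM, scaled to TMM library sizes, summed to 5186 ± 221 at 0 h (SD, n = 2), 9332 ± 1839 at 24 h (n = 3), 9676 ± 788 at 48 h and 11830 ± 2328 at 72 h (n = 4 each). All libraries of 24, 48 and 72 h lay above both 0 h libraries. The shares of 6 and 24 h overlap (up to 0.769% and from 0.760%), so they do not fix when the rise began. The comparisons with 0 h share the same 2 control libraries. In bulk RNA, fewer or more cells that express these genes and less or more RNA per cell cannot be told apart.

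**Figure D1:**
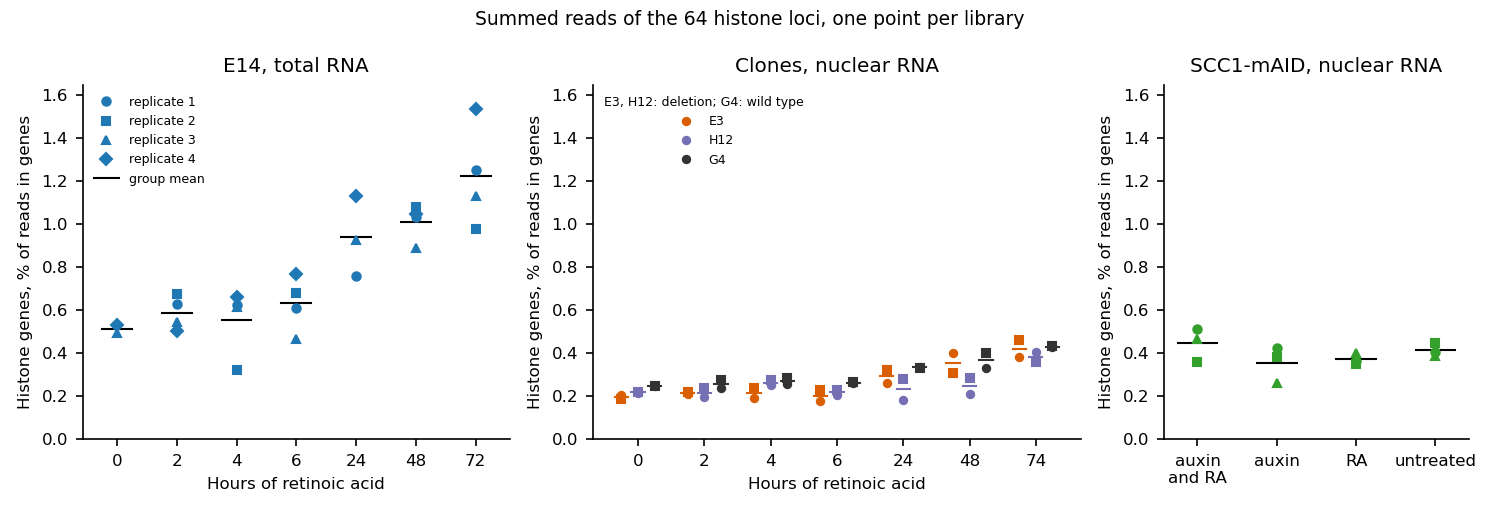
Share of reads in genes taken by the 64 histone loci in each library, in percent, for E14 cells by hours of RA, clones E3, H12 and G4 by hours of RA, and SCC1-mAID cells by treatment. Points are libraries and bars are group means. The E14 libraries from 24 h on sit between 0.760 and 1.53%, above 0.494 and 0.531% at 0 h.

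A gene was called changed at an adjusted p under 0.05 by edgeR's quasi-likelihood test over all 15083 genes tested in the E14 set. Of the 64 loci 61 passed the filter on low counts. Hist1h2ao, Hist1h2bq and Hist1h4m did not. None of the 61 was called at 2, 4 or 6 h against 0 h, times at which 0.497, 2.44 and 3.96% of all genes were called. At an unadjusted p under 0.05 there were 1, 0 and 1 members, and DESeq2 called 0 at each of these times. The members' median log2 fold change was 0.24 at 2 h, 0.11 at 4 h and 0.31 at 6 h, and without replicate 2 the median at 4 h was 0.29 with again 0 called. All differences below are log2 fold changes unless CPM is written.

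At 24 h against 0 h, 30 of 61 members were higher and 0 lower, with a median of 0.82, where 14.1% of all genes were called higher and 13.3% lower. At 48 h 47 were higher and 0 lower (median 0.87), where 28.8% of all genes were called higher and 26.9% lower. At 72 h 53 were higher and 0 lower (median 1.25), where 30.4% were called higher and 29.3% lower, and the median over all genes tested was 0.0047. All 61 estimates were above 0 at 72 h and 43 of the 53 calls were at least 2-fold. By non-overlap with both 0 h libraries, 58 of 61 members were higher at 24 h (28.7% of all genes), 55 at 48 h (34%) and 56 at 72 h (33.8%). The call count at 24 h moved both ways: it was 54 in a fit of only the groups compared and 50 with replicates 3 and 4 alone, but 14 without replicate 3 and 13 without replicate 4 of 0 h, and 18 without replicate 4 of 24 h. At 48 h it was 23 and 29 without replicates 3 and 4 of 0 h.

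Neighbouring times were compared as well. At 24 h against 6 h, 18 members were called higher and 0 lower (median 0.49), where 11.9% of all genes were called higher, and the count was 9 without replicate 4 of 24 h and 37 with replicates 3 and 4 alone. At 48 h against 24 h 0 were called (median 0.06, 0 at an unadjusted p under 0.05, 0 by DESeq2), where 22.7% of all genes were, and replicates 3 and 4 alone called 1 lower. At 72 h against 48 h 0 were called (median 0.30, 7 at an unadjusted p under 0.05, 0 by DESeq2), where 12.5% of all genes were, and 1 was without replicate 2 of 72 h. With the authors' scaling 8 were called, by limma 6, and with replicates 3 and 4 alone 16, of which 15 were higher.

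**Figure D2:**
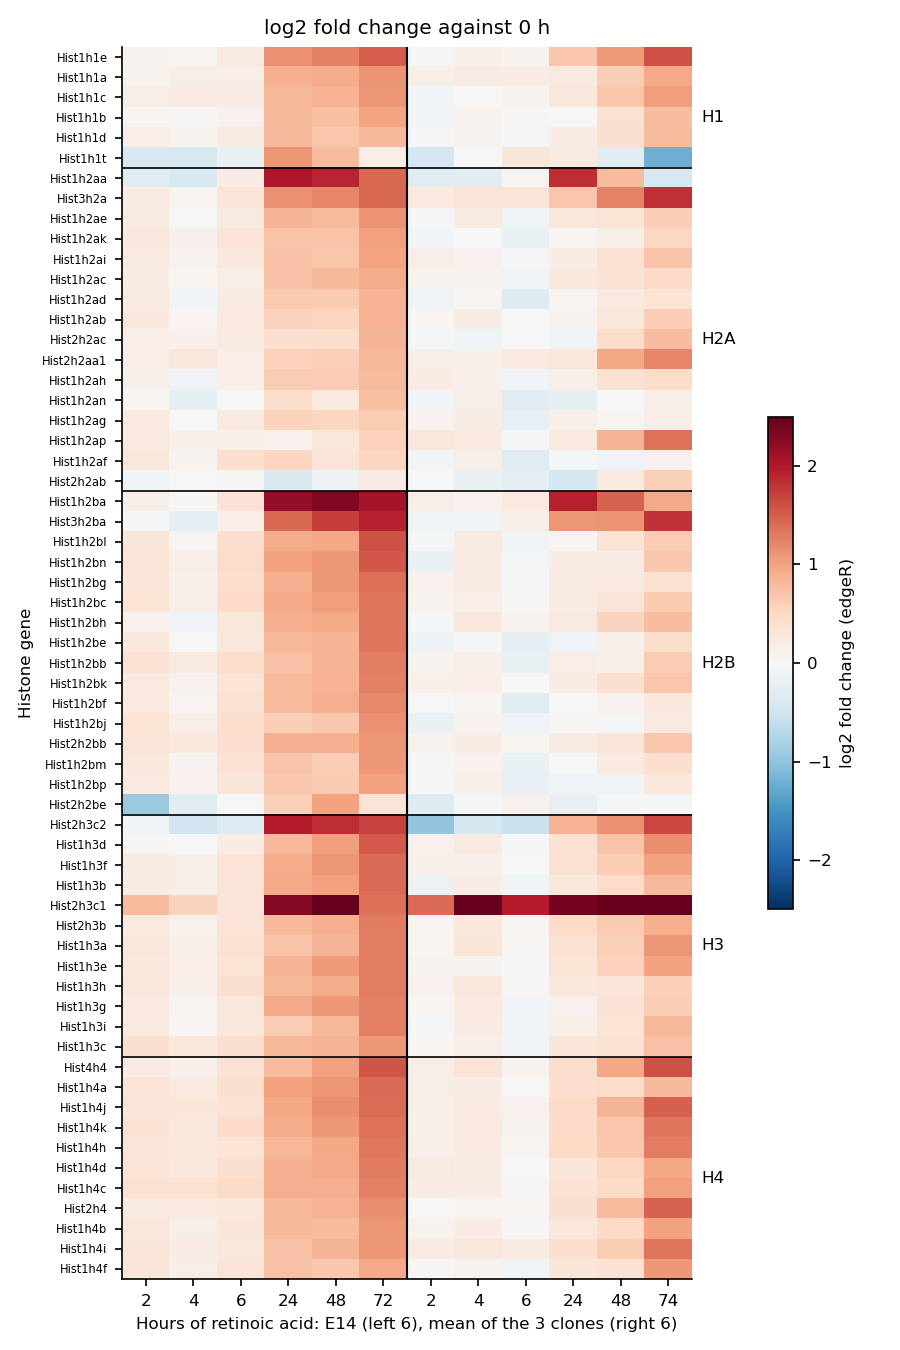
Log2 fold change against 0 h of the 61 histone loci tested (rows, by family) at each time of RA in E14 cells and in the clones fitted in common (columns), with the colour scale held to 2.5 on either side of 0. The E14 columns turn to higher values at 24 h in every family, and Hist1h1t is the row called lower at 74 h in the clones.

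The family counts here and below stand beside 14.1, 28.8 and 30.4% of all genes called higher at 24, 48 and 72 h. Of the linker histones, which sit on the DNA between nucleosomes, all 6 genes were called higher at 24 h and at 48 h, and 5 of 6 at 72 h. Hist1h1e, which encodes H1.4 (chr13:23621777-23622558), had 238 and 242 CPM at 0 h, 411, 527 and 657 CPM at 24 h, 564.5, 603, 505 and 641 CPM at 48 h, and 677, 563, 678 and 818 CPM at 72 h. Every library from 24 h on was above both at 0 h. Its change at 72 h was 1.51 ± 0.24 (SE, adjusted p = 8.7e-06), a fold of 2.85. Hist1h1c (H1.2) had 639, 507, 540 and 652 CPM at 72 h, against 273 and 268 CPM at 0 h, with no overlap (1.11 ± 0.16, adjusted p = 1.2e-06). Hist1h1d (H1.3) had 578, 486, 569 and 723 CPM at 72 h, against 328 and 347 CPM at 0 h, a smaller estimate of 0.80 ± 0.22 (adjusted p = 0.0027). Hist1h1a (H1.1) and Hist1h1b (H1.5) had 1.12 ± 0.17 and 0.99 ± 0.18.

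Among H2A genes, whose products pair with H2B in the nucleosome, 2 of 16 were called higher at 24 h, 6 at 48 h and 11 at 72 h (median at 72 h 0.86). The count at 24 h was not above the 14.1% of all genes, and that at 48 h was not far above their 28.8%. Neither is read as a result about the H2A genes. Hist3h2a from the Hist3 cluster (chr11:58954685-58955192) had 316, 236, 285 and 364 CPM at 72 h, against 108 and 115 CPM at 0 h (1.43 ± 0.24, adjusted p = 2.0e-05). Hist1h2ae had 150, 121, 153 and 185 CPM at 72 h, against 64.2 and 75.8 CPM at 0 h (1.12 ± 0.32, adjusted p = 0.0054). In both genes the groups did not overlap. Hist2h2ab did not pass: it had 18.4, 10.8, 19.7 and 27.7 CPM at 72 h, against 12.9 and 19.9 CPM at 0 h, and these overlap (0.20 ± 0.29, adjusted p = 0.57). Hist1h2af, Hist1h2ag, Hist1h2an and Hist1h2ap did not pass either, with estimates between 0.54 and 0.76.

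Among H2B genes 4 of 16 were called higher at 24 h, 12 at 48 h and 15 at 72 h (median at 72 h 1.31). Hist3h2ba, the other Hist3 gene (chr11:58948911-58949372), had 17.3 and 19.7 CPM at 0 h, 38.4, 54.7 and 56.8 CPM at 24 h, 56.0, 67.4, 68.9 and 53.4 CPM at 48 h, and 75.2, 46.5, 68.3 and 93.7 CPM at 72 h. All libraries from 24 h on were above both at 0 h, and the change at 72 h was 1.93 ± 0.28 (adjusted p = 3.9e-06). Hist1h2bl had 163, 114, 186 and 229 CPM at 72 h, against 53.3 and 62.0 CPM at 0 h (1.58 ± 0.35, adjusted p = 0.0007). Hist1h2bg, across the promoter from Hist1h2ae, had 278, 224, 281 and 359 CPM at 72 h, against 103 and 117 CPM at 0 h (1.37 ± 0.34, adjusted p = 0.0016). Only Hist2h2be of the H2B genes tested did not pass at 72 h (0.34 ± 0.44). Its RefSeq transcript of 2618 bases is the longest of the members' RefSeq transcripts, whose median is 476. In GENCODE the entries of Hist1h1d (7425 bases) and Hist4h4 (2863 bases) are longer than its own (2620 bases).

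H3 and H4 form the inner tetramer of the nucleosome. Among H3 genes 8 of 12 were called higher at 24 h, 12 at 48 h and 11 at 72 h (median at 72 h 1.29), and among H4 genes 10 of 11 at 24 h and 11 at both later times (median at 72 h 1.31). Hist1h3e had 414, 300.2, 319 and 473 CPM at 72 h, against 152 and 159 CPM at 0 h (1.28 ± 0.23, adjusted p = 5.5e-05). Hist1h4d (chr13:23581602-23581969) had 538, 421, 479 and 665 CPM at 72 h, against 216 and 208 CPM at 0 h (1.31 ± 0.21, adjusted p = 9.0e-06). Hist4h4, alone on chromosome 6 (chr6:136803993-136804431), had 227, 175, 242 and 353 CPM at 72 h, against 84.3 and 83.1 CPM at 0 h (1.57 ± 0.29, adjusted p = 8.1e-05). None of these 3 overlapped with 0 h. Hist2h3c1 did not pass at 72 h (1.39 ± 0.76): it and Hist2h3c2 held 0 to 17 and 0 to 23 reads per library over the E14 and clone sets, and no 42-base word of Hist2h3c1 is unique to it.

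The authors' FPKM values, which divide by transcript length, allow levels to be set side by side between genes. At 72 h Hist1h4d had 977 ± 260 FPKM, Hist2h2bb 908 ± 229, Hist1h1e 598 ± 134 and Hist1h3e 548 ± 154 (SD, n = 4 each). Hist1h4d and Hist2h2bb differed by less than their spread. The testis forms were lower, with Hist1h2ba at 31.6 ± 18.5, Hist1h2aa at 27.4 ± 15.6 and Hist1h1t at 6.12 ± 2.88 FPKM.

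The testis forms were followed one by one. Hist1h2ba, TH2B (chr13:23933725-23934156), had 4.39 and 4.97 CPM at 0 h, 13.3, 21.8 and 30.2 CPM at 24 h, 35.5, 28.2, 13.9 and 15.8 CPM at 48 h, and 35.8, 16.8, 12.4 and 14.9 CPM at 72 h. It was called higher at all 3 times (2.20 ± 0.48, 2.31 ± 0.47 and 2.09 ± 0.47), with no overlap with 0 h and with replicate 1 the highest at 48 and 72 h. Hist1h2aa, TH2A, its divergent partner, had 6.58 and 7.12 CPM at 0 h, 31.9, 24.0 and 28.3 CPM at 24 h, 40.0, 22.6, 21.2 and 19.0 CPM at 48 h, and 30.9, 22.5, 9.98 and 10.3 CPM at 72 h. Its estimates were 2.03, 1.91 and 1.43 ± 0.38, all called. Hist1h1t, H1t, had 6.83 and 5.21 CPM at 0 h, 8.46, 11.9 and 18.7 CPM at 24 h, 8.35, 13.3, 13.6 and 5.94 CPM at 48 h, and 10.2, 6.02, 6.96 and 3.30 CPM at 72 h. It was called at 24 h (1.10, adjusted p = 0.017) and 48 h (0.79, adjusted p = 0.044) but not at 72 h (0.16, adjusted p = 0.70), where the groups overlap. The 4 testis and meiotic markers in the table summed to 350 to 493.3 CPM at 24 h and 232 to 382 CPM at 72 h, against 63.1 to 66.2 CPM at 0 h, with none of them at 0 in all libraries. At 24 h only Stra8 of the 4, a gene that RA switches on in germ cells, was called higher (5.80 ± 0.29), and the list's median was 0.23. Their part in the result was not tested.

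**Figure D3:**
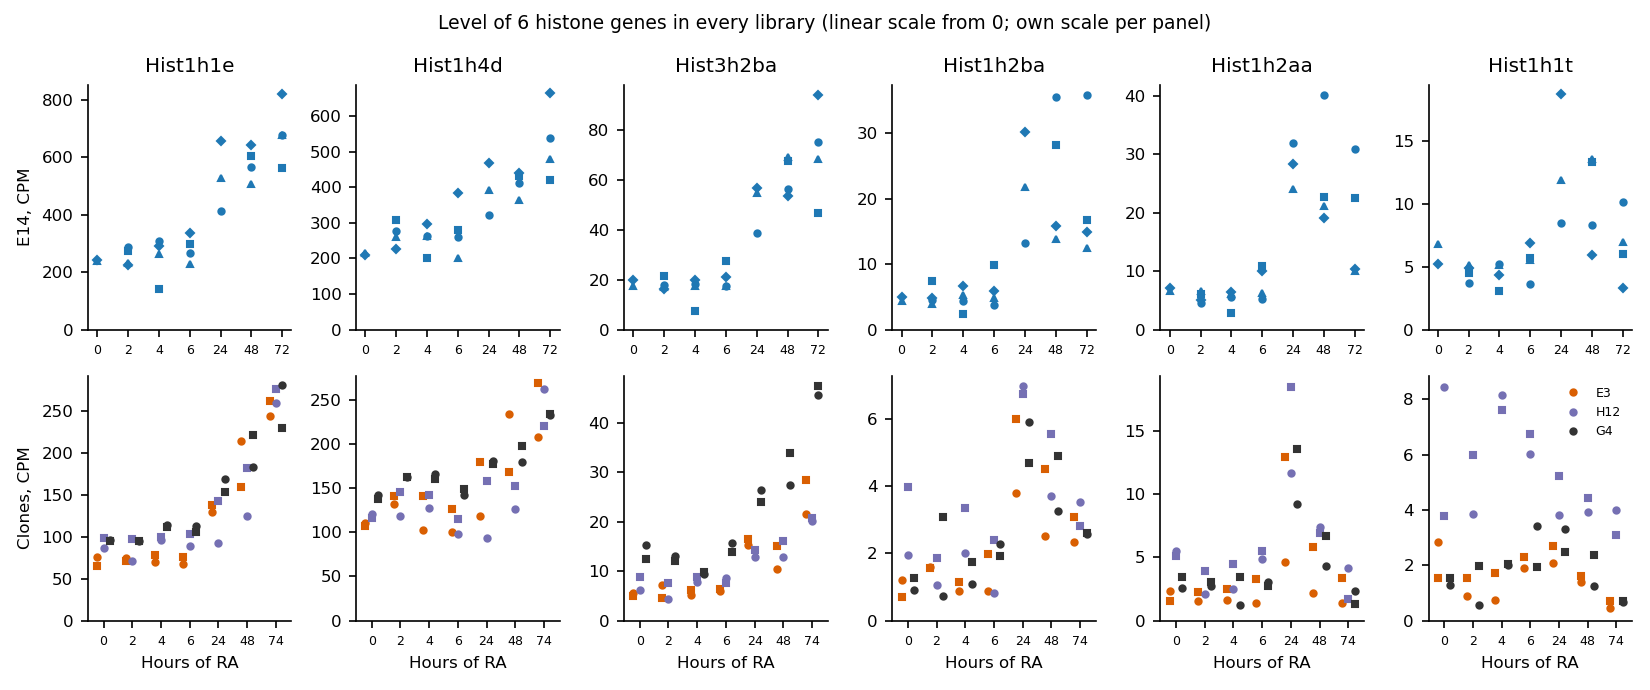
CPM of Hist1h1e, Hist1h4d, Hist3h2ba, Hist1h2ba, Hist1h2aa and Hist1h1t in each library by hours of RA, E14 cells in the top row and clones E3, H12 and G4 in the bottom row. Hist1h1e ends at 563 to 818 CPM in E14 cells, whereas Hist1h1t returns at 72 h to 3.30 to 10.2 CPM, around its 0 h level.

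The rise was set beside length, depth and shared sequence. Other genes with transcripts of up to 500 bases had a median of -0.70 at 72 h, with 34 called higher and 200 lower of 443, and those of 500 to 1000 bases had a median of -0.20. Within E14 groups the deeper library of a pair had the lower histone sum in 25 of 34 pairs, and the 0 h libraries were the deepest. At 6 h replicate 4 held 3363234 reads in genes, against 7964241 to 12982443 in the others. It had 384.5 CPM of Hist1h4d, against 199.6 to 280.7 CPM in the others. The part of depth in the result was not tested. The share of 42-base words found in no other GENCODE transcript was 66.9% for Hist1h1e, 87.7% for Hist1h4d, 72.6% for Hist3h2ba, 60.4% for Hist1h2ba, 73.9% for Hist1h2aa and 100% for Hist1h1t, but 0% for Hist2h2bb, Hist2h3b and Hist2h2aa1. Among other members named above it was 14.4% for Hist1h2bl, 21.4% for Hist1h3e, 49.1% for Hist1h2bg and 54.6% for Hist1h2ae. It was below 25% in 17 and below 50% in 34 of the 61 members tested. Reads of such members could belong to copies, and their values as single genes are uncertain.

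In nuclear RNA of the 3 clones, fitted in common, most histone genes were higher at 48 and 74 h, and at 24 h the share called was nearer to that of all genes. The members' summed CPM had a mean of 2219 ± 250.5 at 0 h, 2321 at 2 h, 2468 at 4 h, 2242 at 6 h, 2734 ± 556 at 24 h, 3222 ± 698 at 48 h and 4286 ± 365 at 74 h (SD, n = 6 each). The 6 libraries of 74 h lay between 3786 and 4717 CPM, all above the 1908 to 2539 CPM of 0 h, whereas those of 24 h overlapped with 0 h. Of 61 members tested among 15922 genes, 0 were called at 2 h (0 at an unadjusted p under 0.05), where 20.7% of all genes were called. At 4 h 1 was called higher, where 9.16% of all genes were, and it was Hist2h3c1 with its few reads. At 6 h 0 were called (2 at an unadjusted p under 0.05), where 20.4% were. DESeq2 called 0 at 2 h, 1 at 4 h and 0 at 6 h, and an edgeR fit of only the groups compared called 1, 7 and 1. The edgeR count at 4 h was 2 without replicate 1 of E3 at 0 or at 4 h. At 6 h it was 3 without replicate 2 of E3, and 1 without replicate 1 of G4 at 0 or 6 h or replicate 1 of H12 at 6 h.

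At 24 h 22 members were higher and 1, Hist2h2ab, was lower (median 0.25), where 28.3% of all genes were called higher and 27.2% lower. Without replicate 1 of H12 at 0 h 15 were higher, and without replicate 2 of H12 at 24 h 10 were higher and 1 lower, so the count at 24 h is not read as a result about the members. At 48 h 39 were higher and 0 lower (median 0.39), where 35% of all genes were called higher and 34.8% lower. At 74 h 50 were higher and 1, Hist1h1t, lower (median 0.77), where 36.5% of all genes were called higher and 37.2% lower. By family 5 of 6 H1, 11 of 16 H2A, 11 of 16 H2B, 12 of 12 H3 and 11 of 11 H4 genes were higher at 74 h, with medians of 0.87, 0.56, 0.63, 0.95 and 1.27. Other genes spanning up to 500 bases had a median of -0.22, with 53 higher and 123 lower of 347. Those of 500 to 1000 bases had -0.10, with 18 higher and 24 lower of 78. Those of 1000 to 3000 bases went the other way, with a median of 0.19 and 343 higher and 243 lower of 866.

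Hist1h1e at 74 h had 245 and 262 CPM in E3, 260 and 278 CPM in H12 and 282 and 230 CPM in G4, against 76.2 and 65.2 CPM in E3, 87.0 and 98.2 CPM in H12 and 96.4 and 95.3 CPM in G4 at 0 h. All 6 late libraries exceeded all 6 early ones (1.60 ± 0.10, adjusted p = 7.4e-15). Hist4h4 had 85.2 and 123 CPM in E3, 98.2 and 60.1 CPM in H12 and 105 and 123 CPM in G4 at 74 h (1.62 ± 0.15 against 0 h). Hist3h2a and Hist3h2ba had the same estimate of 1.82, with SE 0.15 and 0.13. The 2 Hist3 genes and Hist4h4 thus had estimates over 1.4 at the last time in both courses.

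The testis forms TH2A and TH2B had their highest estimates at 24 h in the clones. Hist1h2aa had 4.62 and 12.95 CPM in E3, 11.6 and 18.5 CPM in H12 and 9.22 and 13.5 CPM in G4 at 24 h, against 2.30 and 1.54 CPM in E3, 5.47 and 5.12 CPM in H12 and 2.57 and 3.45 CPM in G4 at 0 h. The estimates were 1.85 ± 0.28 at 24 h, 0.79 at 48 h (both called) and -0.40 at 74 h (adjusted p = 0.27). Hist1h2ba had 1.94 ± 0.27, 1.47 and 0.95, all called. Hist1h1t at 74 h had 0.466 and 0.713 CPM in E3, 3.98 and 3.08 CPM in H12 and 0.674 and 0.721 CPM in G4, against 2.84 and 1.54 CPM in E3, 8.46 and 3.795 CPM in H12 and 1.28 and 1.53 CPM in G4 at 0 h. It was the member called lower at 74 h (-1.22 ± 0.30, adjusted p = 0.00054). Its 74 h libraries were below those of 0 h in E3 and G4 and overlapped with them in H12.

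**Figure D4:**
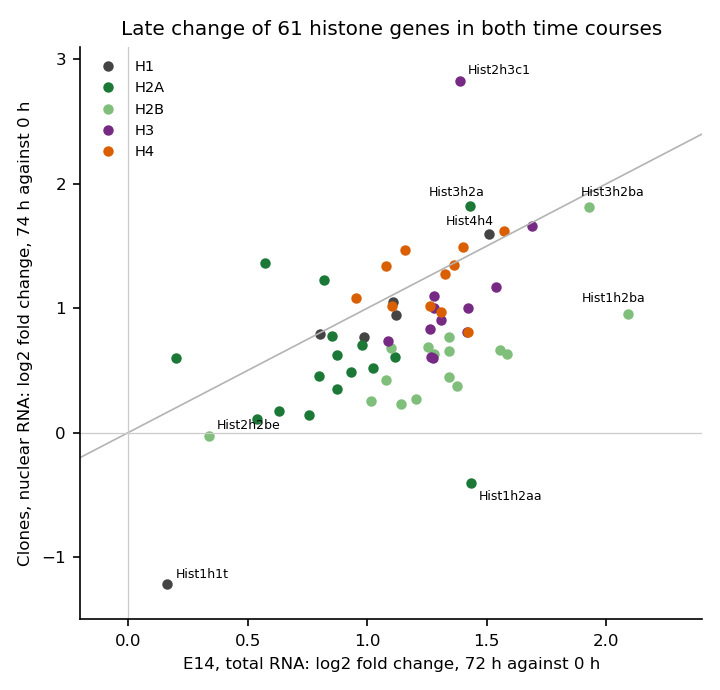
Log2 fold change at 72 h against 0 h in E14 cells (x axis) and at 74 h against 0 h in the clones (y axis) for the 61 members, coloured by family, with the line of equal change. The estimate was above 0 in both for 58 members and larger in E14 cells for 50.

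The courses do not share samples, and over the 61 members the estimates of the last time had a Pearson correlation of 0.511, given as a description since members share sequence and libraries. The groups differ in RNA fraction (total in E14, nuclear in the clones), in counting and in cell line, and these cannot be told apart. By genome block, the Hist1 genes at chr13:21715713-21833575 had medians of 1.08 in E14 cells and 0.66 in the clones, those at chr13:22035122-22043658 had 1.08 and 0.45, those at chr13:23531044-23764412 had 1.27 and 0.79, and the Hist2 genes at chr3:96219916-96270192 had 1.10 and 0.90. The medians of the blocks differed by less than the members ranged within them in the large blocks. Of the divergent pairs, Hist1h2ae and Hist1h2bg had 1.12 and 1.37 in E14 cells and 0.61 and 0.38 in the clones. Hist1h2ba and Hist1h2aa had 2.09 and 1.43 in E14 cells at 72 h and 0.95 and -0.40 in the clones at 74 h.

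As a measure of how alike the members were, each member's log2 CPM over group means was correlated with that of the sum of the others. The median correlation was 0.987 over 7 groups in E14 cells, where 56 of 61 members were over 0.8, and 0.877 over 21 groups in the clones, where 39 of 61 were. The lowest was Hist2h2ab in E14 cells (0.025) and Hist1h1t in the clones (-0.486). The points share libraries and scaling, and members with few reads carry more counting noise.

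Against G4, histone levels in the deletion clones were lower for many members, in E3 mostly from 0 to 6 h and in H12 mostly from 24 to 74 h. From 0 to 6 h, the summed CPM was 1746 to 2375 in E3 (median 2092) and 1973 to 2675 in H12 (median 2223), against 2454 to 2780 in G4 (median 2573; 8 libraries each). E3 did not overlap with G4. From 24 to 74 h it was 2551 to 4717 in E3 (median 3517) and 1749 to 4139 in H12 (median 2754), against 3148 to 4626 in G4 (median 3640; 6 libraries each), and all 3 clones overlap.

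For E3 against G4 from 0 to 6 h, 0 members were called higher and 13 lower (median -0.30), where 4.69% of all genes were called higher and 5.84% lower. The count was 5 without E3 replicate 1 of 6 h, 6 without E3 replicate 1 of 4 h, 7 without G4 replicate 1 of 6 h, 8 without E3 replicate 1 of 2 h, E3 replicate 2 of 0 h or G4 replicate 2 of 0, 2 or 4 h, and 26 without E3 replicate 2 of 6 h. It was 21 in a fit of only the groups compared and 25 with the replicate block. By span, other genes of up to 500 bases had a median of 0.06 and those of 500 to 1000 bases -0.16. Those of 1000 to 3000 bases had -0.17, with 12 higher and 79 lower of 866. The part of gene length in the result was not tested. From 24 to 74 h only Hist3h2ba was called in E3 (median -0.14, 8 members at an unadjusted p under 0.05), where 3.88% of all genes were called higher and 5.01% lower. That count was 7 without E3 replicate 2 of 48 h and 2 without E3 replicate 1 of 48 h or E3 replicate 2 of 24 or 74 h, and 5 with the replicate block.

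For H12 against G4 from 0 to 6 h, 1 member, Hist1h1t, was called higher and 12 lower (median -0.20). Of all genes 19.6% were called higher and 20.5% lower, so this count is not read as a result about the members. It was 8 without G4 replicate 2 of 2 h, 30 in a fit of only the groups compared and 20 with the replicate block. From 24 to 74 h, 1 was higher and 46 lower (median -0.51), where 13.6% of all genes were called higher and 13.4% lower. The count was 28 without H12 replicate 1 of 24 h and 30 without H12 replicate 1 of 48 h, the libraries with the lowest sums (1749 and 2182 CPM) and with 10115309 and 9797424 reads. The members lower in H12 were 2 H1, 11 H2A, 13 H2B, 10 H3 and 10 H4 genes, with family medians of -0.24, -0.53, -0.77, -0.72 and -0.42. By span, other genes of up to 500 bases had a median of -0.06 in this window and those of 500 to 1000 bases -0.15. Those of 1000 to 3000 bases had -0.11, with 54 higher and 120 lower of 866. Extra-embryonic endoderm markers, 9 genes with none at 0 in all libraries, summed to 12510 to 14100 CPM in H12 at 74 h and to 1428 to 1771 CPM in E3, against 1340 to 1944 CPM in G4. Their part in the result was not tested.

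Hist3h2ba differed from G4 in both deletion clones and both windows. At 24 h it had 15.2 and 16.5 CPM in E3 and 12.9 and 14.4 CPM in H12, against 26.4 and 24.0 CPM in G4, and at 74 h 21.6 and 28.5 CPM in E3 and 20.1 and 20.7 CPM in H12, against 45.7 and 47.5 CPM in G4. Neither deletion clone overlapped with G4 at these times. The estimates for E3 were -1.12 ± 0.12 from 0 to 6 h and -0.93 ± 0.12 from 24 to 74 h, and those for H12 were -0.77 ± 0.12 and -1.06 ± 0.12. Its neighbour Hist3h2a was lower in E3 (-0.70) and H12 (-0.43) from 0 to 6 h and in H12 (-0.49) from 24 to 74 h.

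H12 was below G4 at 74 h in several of the members named in this report. Hist1h2bm had 9.19 and 8.41 CPM in H12 at 74 h, against 22.03 and 25.7 CPM in G4, and E3 had 19.9 and 21.8 CPM. Hist1h2bg had 44.1 and 33.4 CPM in H12, against 79.9 and 101 CPM in G4, and Hist1h3b had 27.4 and 18.4 CPM in H12, against 45.7 and 54.8 CPM in G4. None of these overlapped with G4, and over 24 to 74 h their estimates were -0.97 ± 0.14, -0.67 ± 0.17 and -0.90 ± 0.16. Hist1h1t went the other way in H12, at 1.80 ± 0.21 from 0 to 6 h (adjusted p = 3.1e-08) and 1.39 ± 0.26 from 24 to 74 h (adjusted p = 0.00011). H1 genes as a sum reached 1312 and 1252 CPM in H12 at 74 h, against 1137 and 997 CPM in G4, whereas H2B genes summed to 519 and 508 CPM, against 797 and 917 CPM in G4. Set directly against E3, a comparison added after the data were seen, H12 had 8 members higher and 0 lower from 0 to 6 h, where 18.4% of all genes were called higher and 18.9% lower. From 24 to 74 h it had 1 higher and 25 lower, where 11.2% of all genes were called higher and 9.57% lower.

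Taken as 1 group, the deletion clones had 1 member higher and 20 lower than G4 from 0 to 6 h (median -0.26), where 11.6% of all genes were called higher and 15.3% lower. That count was 33 without E3 replicate 2 of 6 h, 10 without G4 replicate 2 of 2 h, 12 without G4 replicate 2 of 4 h and 34 with the replicate block. From 24 to 74 h 0 were higher and 25 lower (median -0.33), where 8.29% of all genes were called higher and 9.89% lower, and the count was 16, 12 and 14 without G4 replicate 2 of 24, 48 and 74 h and 38 with the replicate block. The change from 0 to 74 h itself was not called different from that in G4 for any member (0 by edgeR, 0 by DESeq2, 1 at an unadjusted p under 0.05), where 6.95% of all genes were called.

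**Figure D5:**
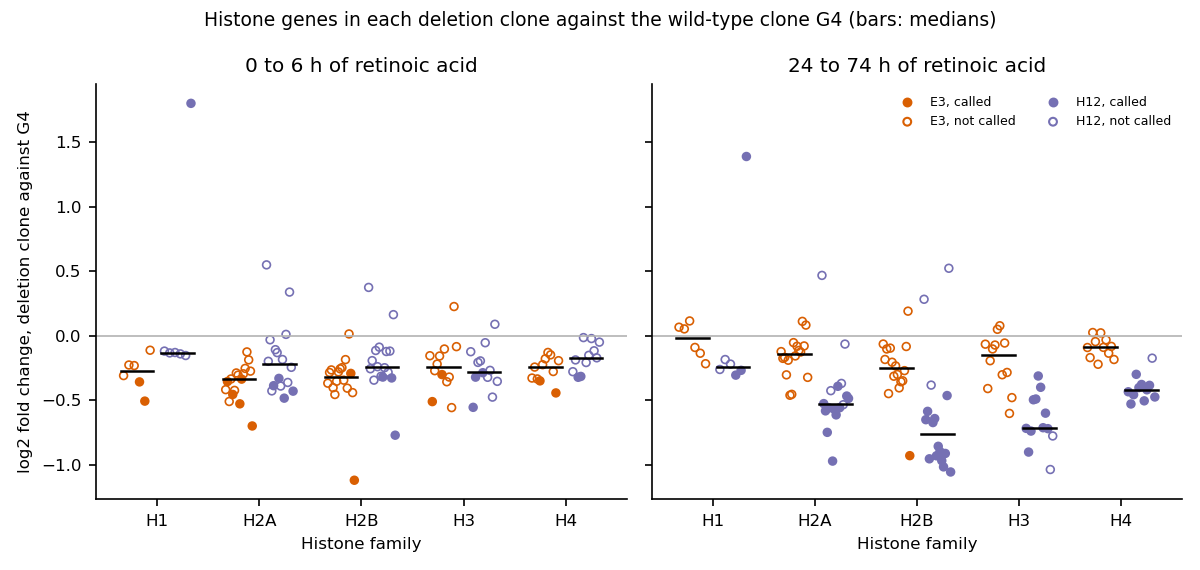
Log2 fold change of each member in E3 and H12 against G4, by family, over 0 to 6 h (left) and 24 to 74 h (right). Filled points are called at an adjusted p under 0.05 and bars are family medians. H12 at 24 to 74 h has 46 members called lower and Hist1h1t called higher.

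In SCC1-mAID cells, 58 members were tested among 14030 genes, since Hist2h2be, Hist2h3c1 and Hist2h3c2 also failed the filter. No member was called in any comparison by edgeR over all groups. A fit of only the groups compared called 2 lower for RA, and without a filter on low counts 1 was lower for auxin and 3 were higher for auxin and RA against auxin. Summed CPM was 3579 to 5101 with auxin and RA (median 5043), 2570 to 4220 with auxin (median 3607) and 3498 to 4083 with RA (median 3656), against 4012 to 4389 in untreated cells (median 4034), so all treated groups overlap with untreated cells. Auxin against untreated had a median of -0.35 with 55 of 58 estimates below 0 and 10 members at an unadjusted p under 0.05, where 0.235% of all genes were called. By non-overlap 14 of 58 members were lower with auxin, where 9.55% of all genes were. RA against untreated had a median of -0.21 (5 at an unadjusted p under 0.05), where 2.57% of all genes were called.

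Auxin and RA against RA had a median of 0.27 (6 at an unadjusted p under 0.05), where 0.364% of all genes were called, and auxin and RA against auxin 0.39 (20 at an unadjusted p under 0.05), where 2.64% were. In that comparison 0 members were called, but 11 were without replicate 2 of auxin and RA and 9 were without replicate 1 of auxin. The interaction, which tests whether the effect of auxin differs with RA, had 57 of 58 estimates above 0 (median 0.59, 21 at an unadjusted p under 0.05), where 0 of all genes (0%) were called. DESeq2 called 1 member lower for auxin against untreated, 1 higher for auxin and RA against auxin, and 0 elsewhere. With the authors' own scaling the median over all genes was -0.33 for auxin and RA against RA and for the interaction. It was -0.14 for auxin and RA against auxin and 0.18 for RA. The members' median for auxin and RA against RA then had the other sign, at -0.07. Taken relative to the median over all genes, it was 0.26 with the authors' scaling and 0.25 with TMM.

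Hist1h2bl, chosen after its values were seen, had 63.0, 36.3 and 38.3 CPM with auxin and RA, 28.0, 35.0 and 25.03 CPM with auxin, and 31.4, 21.9 and 39.2 CPM with RA, against 46.6, 49.5 and 46.4 CPM untreated. The auxin libraries all lay below the untreated ones (-0.68 ± 0.22, adjusted p = 0.21), and its interaction was 1.25 ± 0.31 (adjusted p = 0.54). Hist1h4d had 250, 184 and 275 CPM with auxin and RA, 237, 175 and 125 CPM with auxin, and 185, 195 and 210 CPM with RA, against 198, 228 and 214 CPM untreated, and these overlap. By family the interaction medians were 0.42 for H1, 0.40 for H2A, 0.90 for H2B, 0.58 for H3 and 0.67 for H4.

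The other genes of the pathway are read against all genes tested, of which 30.4% were called higher and 29.3% lower in E14 cells at 72 h and 36.5% higher and 37.2% lower in the clones at 74 h. Of 27 tested genes for histone transcription and pre-mRNA processing, 3 were higher and 12 lower in E14 cells at 72 h (median -0.21), and 4 higher and 14 lower in the clones at 74 h (median -0.18). Ccne1, the cyclin E that drives S phase entry with CDK2, was lower in both (-1.83 ± 0.13 and -1.32 ± 0.09), at 92.8 ± 8.9 CPM at 72 h, against 330 ± 0.59 CPM at 0 h. Zfp473, a U7-associated processing factor, was lower too (-1.51 and -1.40), and the U7 protein gene Lsm11 was higher (0.75 and 0.59). Slbp did not pass in either (-0.30, adjusted p = 0.059, and 0.16, adjusted p = 0.068). Npat did not pass in E14 cells (0.05) and was lower in the clones (-0.23).

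Of 30 S phase replication genes, 3 were higher and 15 lower in E14 cells at 72 h and 6 higher and 15 lower in the clones, with Orc1, of the origin recognition complex, at -1.08 and -1.16 and Rrm1, of ribonucleotide reductase, at 0.60 and 0.81. Of 12 genes that set cell cycle exit or entry (CDK inhibitors, D-type cyclins and the RB family) 8 were higher and 1 lower in E14 cells, and 9 higher and 1 lower in the clones, among them Cdkn1c, an inhibitor of CDKs (2.06 and 2.26), and Ccnd2, a D-type cyclin that drives G1 progression (3.75 and 2.86). Histone chaperones were 3 higher and 5 lower of 20 in E14 cells, and 7 higher and 10 lower in the clones, so in E14 cells neither share was above that of all genes. Replication-independent variants, made outside S phase with a poly(A) tail, were 8 higher and 2 lower of 12 tested in E14 cells (median 0.70), and 9 higher and 2 lower in the clones (median 0.80). Among them H1f0, the linker histone of cells that stop dividing, was at 235 ± 20.6 CPM at 72 h, against 21.01 ± 0.28 CPM at 0 h (3.48 ± 0.33), and macroH2A2 (H2afy2) had 1.86 and 1.83.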

How the data were processed

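The deposited tables held, per the file headers, a signal for each RefSeq transcript and library on mm10, which the authors obtained by dividing gene counts by a size factor per library. STAR, Bowtie2, SAMtools and DESeq2 are named, without roles or versions, per the submitters' processing notes, and whether counting used strand is not given in the sources used here. The signal columns were whole multiples of a step, and dividing by it gave whole reads within 0.1 read for at least 99.996% of values in every library. The E14 table also held the authors' FPKM per transcript.

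One transcript per gene was kept (for members the shortest span, otherwise that with most reads). The recovered counts were fitted with edgeR 4.0.16 (TMM, filterByExpr, robust quasi-likelihood test, Benjamini-Hochberg adjustment over all genes tested) in R 4.3.3, with 1 term per group of a set. The design foresaw this count test on the recovered reads. Levels are CPM on TMM library sizes. Standard errors (SE) were taken from each test's F value and are approximate. Clone times were averaged over E3, H12 and G4, and clones over the times of a window. Alternatives used DESeq2 1.42.0, limma 3.58.1 on log2 of the deposited value plus 1, other scalings, filters and fits, and leaving out each library. Scripts were tested on simulated data. E14 and SCC1-mAID replicates are biological, per the series' design text. For the clones nothing says that the 2 libraries came from separate cultures, so their p-values may measure technical spread.

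Members, gene lists and markers were chosen with earlier results of these data known. Members named are those of highest mean CPM in each family, up to 5 called members with the largest change in each direction and comparison, the testis forms, and others where said. In the SCC1-mAID table replicate 3 of the titles is numbered 4 in the columns. No library was dropped, and no 2 libraries of a group held identical counts.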

Additional observations from a re-analysis of the deposited data

Results flagged for a closer look

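In groups of 4 libraries, 155 values of members and sums were searched for a library far from the others by Dixon's criterion, and 11 (7.097%) were found, where chance gives about 1 in 20. Of these, 9 were the same E14 library, replicate 2 of 4 h. It had a histone sum of 3458 CPM, against 6231 to 6745 CPM in the other libraries of 4 h, with 526.1 CPM of H2B genes, against 1339 to 1440, and 458 CPM of H3 genes, against 915 to 1008. In single genes it had 223 CPM of Hist1h1d (others 389 to 411), 55.0 of Hist1h2bc (118 to 129), 44.7 of Hist1h2bg (141 to 146), 23.7 of Hist1h2bl (70.1 to 76.3), 59.3 of Hist1h3c (118 to 121) and 213 of Hist2h2bb (403 to 424). It held 6225845 reads in genes, against 9130307 to 11026793 in the others.

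Hist2h3c1 had 0.131 CPM in replicate 3 of 2 h, against 0.502 to 0.537 in the others, values of few reads. Hist1h2ak had 138 CPM in replicate 3 of 48 h, against 181 to 188 in the others.

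The deletion clones differed from each other mostly from 24 to 74 h. H12 against E3 had 8 members called higher and 0 lower from 0 to 6 h (median 0.07). Of all genes 18.4% were called higher and 18.9% lower, so this count is not read as a result about the members. Hist1h1t was at 1.92 ± 0.21 and Hist1h2aa at 0.97 ± 0.29. From 24 to 74 h 1 member, again Hist1h1t (1.61 ± 0.27), was higher and 25 were lower (median -0.39). Of all genes 11.2% were called higher and 9.57% lower in that window. Hist1h2bj (-0.70 ± 0.17) and Hist1h3a (-0.65 ± 0.12) had the most negative of the called estimates.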

How the results depend on the processing

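Of 554 alternative counts of called members, 490 were within 1.5 times the value reported, where a count of 0 that stayed at 0 is taken as within. The 67 named member results kept their direction in all 1493 alternatives, and 74 of these lost the call. They were picked as called members with the largest changes and refitted on the same libraries, so a kept direction is little support. Leaving out each library in turn gave, in E14 cells, 13 to 38 called at 24 h, 23 to 41 at 48 h, 37 to 53 at 72 h, 9 to 25 at 24 h against 6 h and 0 to 1 at 72 h against 48 h. It gave 0 to 11 for auxin and RA against auxin. In the clones it gave 1 to 2 at 4 h, 0 to 3 at 6 h, 11 to 29 at 24 h, 33 to 43 at 48 h, 48 to 52 at 74 h, 10 to 33 and 12 to 35 for the deletion clones in the early and late windows, 5 to 26 and 1 to 7 for E3, and 8 to 14 and 28 to 48 for H12. A fit of only the groups compared called 54 at 24 h in E14 cells, 2 for RA against untreated, 1, 7 and 1 at 2, 4 and 6 h in the clones, and 21 for E3 and 30 for H12 from 0 to 6 h. Replicates 3 and 4 alone called 50 at 24 h, 37 at 24 h against 6 h, 1 at 48 h against 24 h and 16 at 72 h against 48 h. At 72 h against 48 h the authors' scaling called 8 and limma called 6. Without a filter 1 was called for auxin and 3 for auxin and RA against auxin, where DESeq2 called 1 each. Without members that overlap another gene 0 were called at 4 h in the clones. Same-numbered libraries of different groups had correlated deviations from their group means in some pairs and not in others. The correlations lay between -0.155 and 0.545 (E14, median 0.058), -0.303 and 0.333 (clones, median 0.069) and -0.357 and 0.332 (SCC1-mAID, median 0.14). Pairs of unlike number had lower medians, at -0.011, -0.069 and -0.083. In the clones, with 2 libraries per group, the deviations mirror each other. These values do not settle whether a number marks a shared effect, and the fit reported had no term for it. The replicate block called 2 at 4 h and 1 at 6 h in the clones, 34 and 38 for the deletion clones, 25 and 5 for E3 and 20 for H12 from 0 to 6 h, and moved no other count by over 1.5 times. The causes of these differences were not tested. With the size factors of the authors the median over all genes shifted by 0.27 at 72 h against 0 h, the members' median being 1.54, and by 0.22 at 72 h against 48 h. Keeping the member transcript with most reads was chosen after seeing the data and is counted among the alternatives. Depth limits Hist2h3c1 and Hist2h3c2, with few reads per library.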

Other observations

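Single clone libraries differed in the make-up of their histone reads. At 48 h the 2 E3 libraries had 1477 and 704 CPM of H1 genes, and Hist1h1c alone had 431 and 161 CPM. Time by time, the count of the 61 members below G4 in E3 was 58 without RA, 55, 56 and 60 at the 3 early times and 54, 45 and 41 at 24, 48 and 74 h, where 48.8 to 52.5% of all genes tested lay below G4. In H12 it was 53 without RA, 53, 32 and 51 at the early times and 56, 57 and 46 at the late ones, where 48.4 to 51.1% of all genes did. The marker lists are given beside all genes tested, of which 30.4% were called higher and 29.3% lower in E14 cells at 72 h, and 36.5% higher and 37.2% lower in the clones at 74 h. Neural markers were 4 higher and 2 lower of 7 in E14 cells at 72 h and 5 higher and 2 lower in the clones at 74 h. The 2-cell-like markers were 4 higher of 4 in both, and fibroblast markers 3 and 4 higher of 4. Fibroblast markers also differed between E14 libraries of the early times. They summed to 58.5 to 481 CPM at 2 h, 44.6 to 874 CPM at 4 h and 44.3 to 549 CPM at 6 h, against 67.3 to 69.2 CPM at 0 h. The 0 h group holds only replicates 3 and 4. The part of this spread in the result was not tested. Of the testis and meiotic markers 2 were higher and 1 lower of 4 in E14 cells, and 1 higher and 1 lower in the clones.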
